A study of Mus musculus with 90 samples.

Results

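The antiviral genes Ifit1, Ifit2, Ifit3, Cmpk2 and Rsad2 were followed through 15 stimulation conditions of RAW 264.7 cells, a mouse macrophage line. They are 5 of the 10698 genes with a named probe on the array, and 8 of its 16281 probes report them. They were chosen by their response to 4 h of LPS, which Cmpk2 and Ifit2 lead, so every value that involves LPS alone at 4 h is a description and was not tested. Of the 8 probes, 4 had enough values for the fit across all features, 1 each for Ifit1, Ifit2, Ifit3 and Cmpk2. The Rsad2 probe and the second probes of the Ifit genes had too many missing values for it and were fitted probe by probe with no filter, a choice made after the data were seen.

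Cells received LPS plus interferon gamma (LPS+IFG), LPS plus 2-methyl-thio-ATP (LPS+2MA), LPS alone, interferon gamma alone (IFG) or 2-methyl-thio-ATP alone (2MA), for 1, 2 or 4 h, and untreated cells were kept in medium for the same time. LPS was given at 100 ng/ml, IFG at 5 nM and 2MA, an ATP analogue that acts on purinergic receptors, at 500 µM. The labels list a lipid binding protein at 100 pM with LPS alone and not with the combinations. Each array carried treated RNA in one dye and untreated RNA of the same time in the other, and each condition had 3 sets with both dye orientations, 6 arrays a condition and 90 arrays in all. Nothing in the labels ties a set to its own culture or tells whether untreated RNA was shared between treatments. The p-values therefore cover the spread among these samples alone, which may be technical.

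Every value below is a log2 ratio of treated to untreated RNA or a difference of such ratios, where 1 is a 2-fold ratio. A set's value is the mean of its dye-swapped pair. The labels give the dyes but not which channel is on top of the deposited ratio. It was taken as Cy5 over Cy3, a likely direction, since Irf1, a textbook target of interferon gamma, then stood at 3.86 ± 0.13 (SD, n = 3) after 4 h of IFG. Values of exactly 0 were treated as missing and made up 7.84% to 17.03% of an array, and 14 values lay at a limit of 6.64. The arrays hold ratios and no levels, so neither the level of one gene against another nor the identity of the cells can be read from them, and fewer transcribing cells and less RNA per cell cannot be told apart. Of 5 macrophage genes measured, at most 1 was called higher and 1 lower in any condition. Of 11 measured markers of T cells, B cells, epithelium and fibroblasts, limma called 0 in any condition at an adjusted p under 0.05 and 2-fold. Their 4 lists had 4, 0, 4 and 1 unadjusted p-values under 0.05 over all 15 conditions.

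The Ifit proteins are tetratricopeptide-repeat proteins that bind foreign RNA. Ifit1 holds RNA whose cap lacks the methylation of the host's own, Ifit2 binds RNA and limits neurotropic viruses in mice, and IFIT3 in human cells binds IFIT1. Rsad2 encodes viperin, an enzyme that turns CTP into a chain-terminating nucleotide, and Cmpk2 encodes a mitochondrial nucleoside monophosphate kinase that feeds the CTP pool. LPS is sensed by Tlr4, whose Ticam1 branch leads to interferon beta, and interferon beta then acts through its receptor on genes with interferon-stimulated response elements (ISRE). Interferon gamma has its own receptor and acts mainly on genes with gamma-activated sites (GAS).

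The members lie in 2 gene clusters, shown here by the 250 bases before their annotated starts because both the ISRE and the GAS letters can be looked for in them. In the RefSeq gene table of GRCm38.p6, Ifit2 and Ifit3 are neighbours among protein-coding genes on chromosome 19, with Ifit1 on the same chromosome, and Rsad2 and Cmpk2 are neighbours on chromosome 12 on opposite strands. Promoter sequences were found for 5 of 5 members. The letters GAAA repeated after any 2 bases, an ISRE core, were searched on both strands and are in capitals where found. They occur in 978 of 32851 promoter windows of this length (2.98%), and 2 or more times in 59 of them (0.180%). The letters TTCNNNGAA, a GAS, occur in 2306 windows (7.02%).
Ifit1, chr19:34640639-34640888, plus strand: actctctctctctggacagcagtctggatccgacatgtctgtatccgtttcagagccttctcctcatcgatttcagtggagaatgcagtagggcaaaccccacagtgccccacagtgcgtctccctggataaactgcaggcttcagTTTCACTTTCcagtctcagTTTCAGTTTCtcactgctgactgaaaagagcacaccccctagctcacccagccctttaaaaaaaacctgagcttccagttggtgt
Ifit3, chr19:34583279-34583528, plus strand: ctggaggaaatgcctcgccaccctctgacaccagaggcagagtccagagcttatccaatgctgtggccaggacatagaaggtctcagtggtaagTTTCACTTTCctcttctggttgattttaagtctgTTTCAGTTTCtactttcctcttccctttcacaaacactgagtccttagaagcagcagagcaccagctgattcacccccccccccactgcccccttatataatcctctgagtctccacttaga
Rsad2, chr12:26456453-26456702, minus strand: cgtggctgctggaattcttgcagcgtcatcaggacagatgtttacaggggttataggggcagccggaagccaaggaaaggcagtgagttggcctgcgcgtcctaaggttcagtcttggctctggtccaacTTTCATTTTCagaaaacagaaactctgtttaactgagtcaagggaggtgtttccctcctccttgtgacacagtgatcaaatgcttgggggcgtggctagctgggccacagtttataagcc
Cmpk2, chr12:26468965-26469214, plus strand: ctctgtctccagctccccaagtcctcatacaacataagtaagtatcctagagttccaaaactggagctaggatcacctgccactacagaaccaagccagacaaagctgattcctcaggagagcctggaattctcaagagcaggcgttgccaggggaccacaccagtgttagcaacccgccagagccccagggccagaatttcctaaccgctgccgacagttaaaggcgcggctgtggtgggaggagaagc
The Ifit1 window holds 2 ISRE cores, at positions -104 to -95 and -85 to -76 from the start, and the Ifit3 window holds 2, at -156 to -147 and -122 to -113. The Rsad2 window holds 1, at -120 to -111, and the Cmpk2 window holds neither set of letters. Ifit2 has a pair of annotated starts, whose windows at chr19:34550444-34550693 and chr19:34550838-34551087 on the plus strand hold 0 ISRE cores and, in the first of them, 1 GAS at -241 to -233. These are matches of letters within one window and say nothing of a factor's binding. The array itself gives no sequence here for its probes.

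At 4 h of LPS, the contrast that chose the members, Cmpk2 ranked 1 and Ifit2 ranked 2 of 11600 features by mean log2 ratio, Ifit1 ranked 9 and Ifit3 ranked 16. At that time 3.64% of all features were called higher at an adjusted p under 0.05 and at least 2-fold, the rule used throughout, and nothing is read from it for the members. Cmpk2 stood at 5.74, 5.16 and 5.52 in sets 1 to 3, a mean fold of 44.4, and Ifit2 at 5.49, 5.44 and 4.89, a mean fold of 38.7. Ifit1 stood at 4.53, 4.42 and 4.38, the tightest of the 4 probes in the fit across all features at this time. In conditions the choice did not use, the combinations at 4 h kept this order or nearly so, and 1 h of LPS did not. After 4 h of LPS+2MA, Cmpk2, Ifit2, Ifit1 and Ifit3 ranked 1, 2, 10 and 27, and after 4 h of LPS+IFG they ranked 11, 10, 33 and 83. After 1 h of LPS, Ifit3, on its first probe, ranked 20, Ifit1 144, Cmpk2 3272 and Ifit2 5432.

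**Figure D1:**
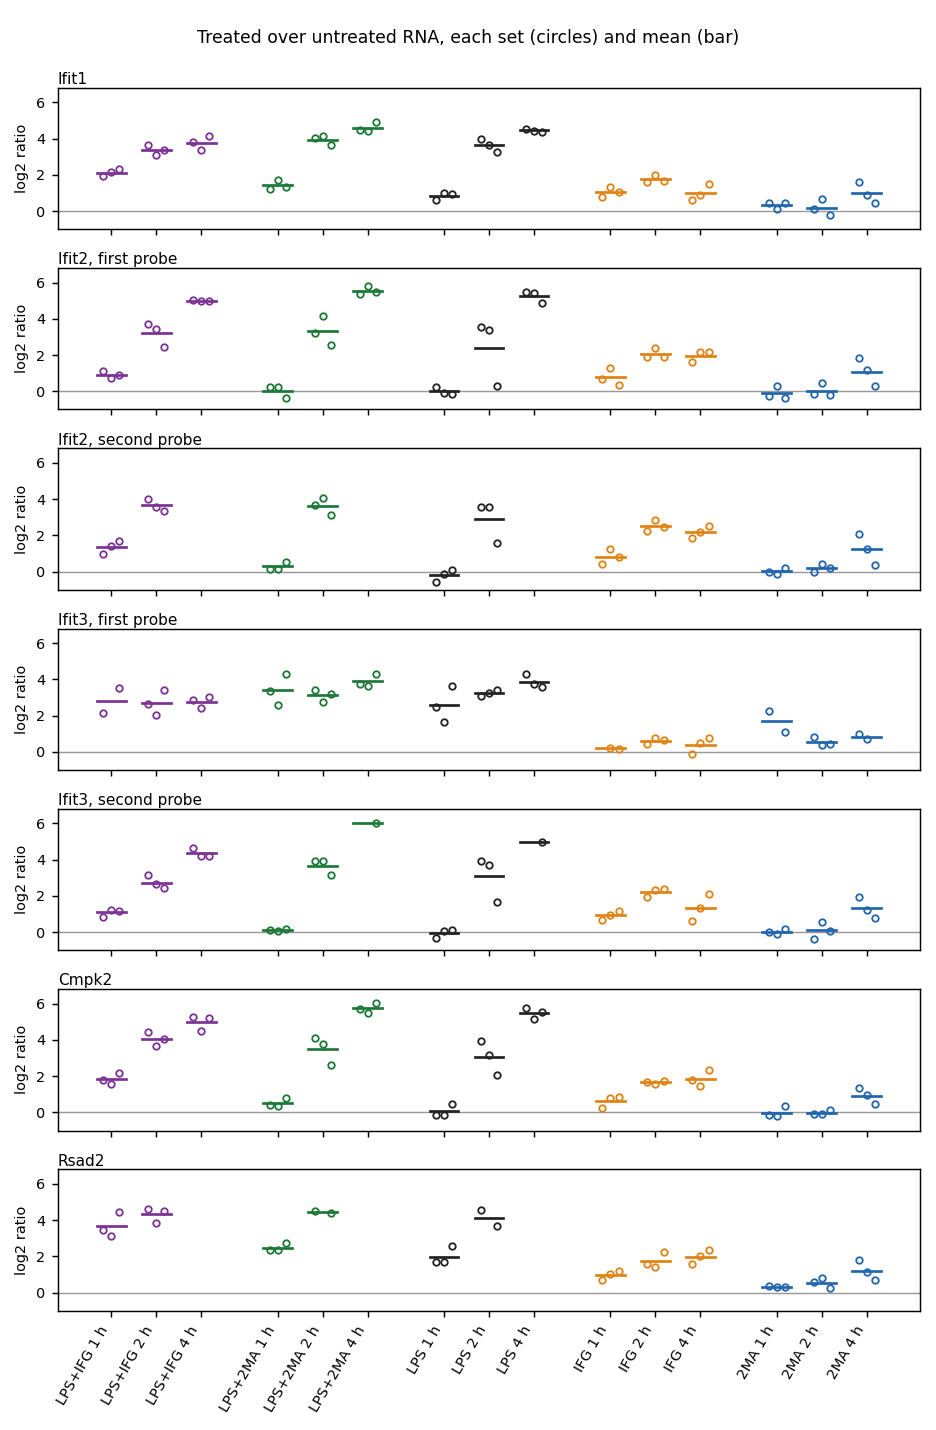
Log2 ratio of treated to untreated RNA for 7 probes of the 5 genes (1 panel a probe) over the treatments LPS+IFG, LPS+2MA, LPS, IFG and 2MA at 1, 2 and 4 h. Circles are sets (means of a dye-swapped pair) and bars are means; missing conditions are empty. Cmpk2 climbs to 5.47 after 4 h of LPS, and the first Ifit3 probe is already at 2.57 after 1 h of it.

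After 1 h of LPS the members differed among themselves. Rsad2 rose to 1.68, 1.69 and 2.60 in sets 1 to 3, 3.97-fold on average (adjusted p = 1.08e-07). Ifit1 stood at 0.59, 1.01 and 0.92, 1.79-fold, which passed the p threshold (0.00109) and not the 2-fold one. Cmpk2 stood at -0.12, -0.15 and 0.46, and Ifit2 at 0.21, -0.07 and -0.15, so sets of both genes lay on either side of 0. Of the 4 members in the fit across all features, 1 was called higher, Ifit3, against 1.03% of all features (1.23% of single probes in the fit without a filter). That call comes from the first Ifit3 probe, and the second Ifit3 probe did not show it.

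By 2 h of LPS all 4 were called higher, against 1.84% of features (2.13% of single probes). Ifit1 stood at 3.99, 3.65 and 3.23, 12.3-fold (adjusted p = 4.49e-18), Cmpk2 at 3.92, 3.18 and 2.08, 8.34-fold (8.9e-13), and Ifit2 at 3.54, 3.39 and 0.29, 5.3-fold (1.13e-06). The sets of Ifit1 stayed within 1 of each other, and those of Ifit2 did not. In set 3 both Ifit2 arrays were low, 0.19 where Cy5 carried the treated RNA and 0.38 where Cy3 did, while the other 4 arrays of the condition lay between 3.37 and 3.70. The second Ifit2 probe, at 3.57, 3.58 and 1.59, and the second Ifit3 probe, at 3.91, 3.71 and 1.67, were also lowest in set 3 and were called, as was Rsad2 at 4.55 and 3.66 in the 2 sets with a value (17.2-fold, 7.18e-13). The first Ifit3 probe went the other way, at 3.10, 3.27 and 3.42. Set 3 was the lowest for other interferon effectors too. The median of 23 measured type I interferon effectors was 1.16, 1.10 and 0.51 in sets 1 to 3 of LPS at 2 h, and its part in the Ifit2 value was not tested.

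Between 1 h and 2 h of LPS, 3 of the 4 members rose, against 0.638% of features (0.794% of single probes). The increase was 3.00 ± 0.33 (SE) for Cmpk2 (adjusted p = 1.24e-07), 2.78 ± 0.25 for Ifit1 (1.16e-09) and 2.41 ± 0.48 for Ifit2 (0.00189). Without LPS 2 h set 1 the Ifit2 increase was 1.84 and lost its call (adjusted p = 0.0613), as it did with only the compared conditions fitted (2.41, adjusted p = 0.133). Rsad2 rose by 2.11 ± 0.35 and the second probes of Ifit2 and Ifit3 by 3.12 and 3.15, all called. From 2 h to 4 h, which was not tested, Ifit2 gained 2.87, Cmpk2 2.41 and Ifit1 0.82.

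**Figure D2:**
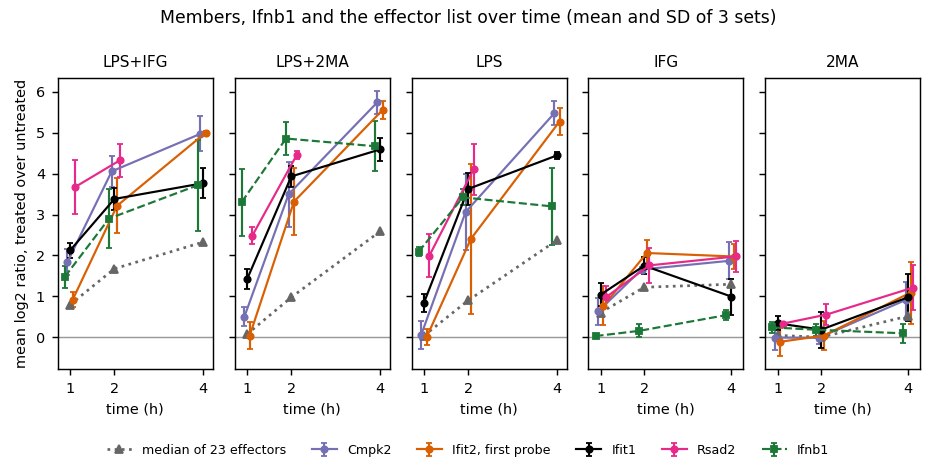
Mean log2 ratio against time (1, 2 and 4 h), 1 panel a treatment, for Cmpk2, Ifit2 (first probe), Ifit1, Rsad2 and Ifnb1 with SD bars over 3 sets, and the median of 23 type I interferon effectors. Ifnb1 stands at 2.09 after 1 h of LPS, when Rsad2 is at 1.99, Ifit1 at 0.84, Cmpk2 at 0.06 and the effector median at 0.04. Rsad2 has no value after 4 h of LPS.

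The 2 Ifit3 probes gave different time courses. The first, which carried Ifit3 in the fit across all features, was called higher after 1 h of LPS at 2.46, 1.62 and 3.63 in sets 1 to 3 (5.93-fold, adjusted p = 5.44e-08). The second stood at -0.34, 0.06 and 0.12 in the same samples. After 2 h of IFG the first stood at 0.41, 0.79 and 0.65 and was not called (0.474), while the second stood at 1.92, 2.33 and 2.40 and was (4.64-fold, 2.51e-07). Across the 15 condition means the pair correlated at r = 0.570, whereas the 2 Ifit2 probes correlated at 0.994 over 12 conditions, a description over conditions that share samples. The second Ifit3 probe followed Ifit2 (r = 0.981) and Cmpk2 (0.968) more than it followed the first Ifit3 probe, whose r with Cmpk2 was 0.633. Ratios of the first Ifit3 probe also moved with the dye. They were higher with treated RNA in Cy3 in 15 of 15 conditions, by 0.99 on average (0.46 to 1.76), against 0.12 on average for the second probe and 0.35 for Cmpk2. After 1 h of LPS the first probe averaged 2.17 in Cy5 and 2.97 in Cy3. Which probe follows Ifit3 was not tested, so both are given. Ifit3b, a near-identical copy of Ifit3, may share its signal, which was not tested either.

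**Figure D3:**
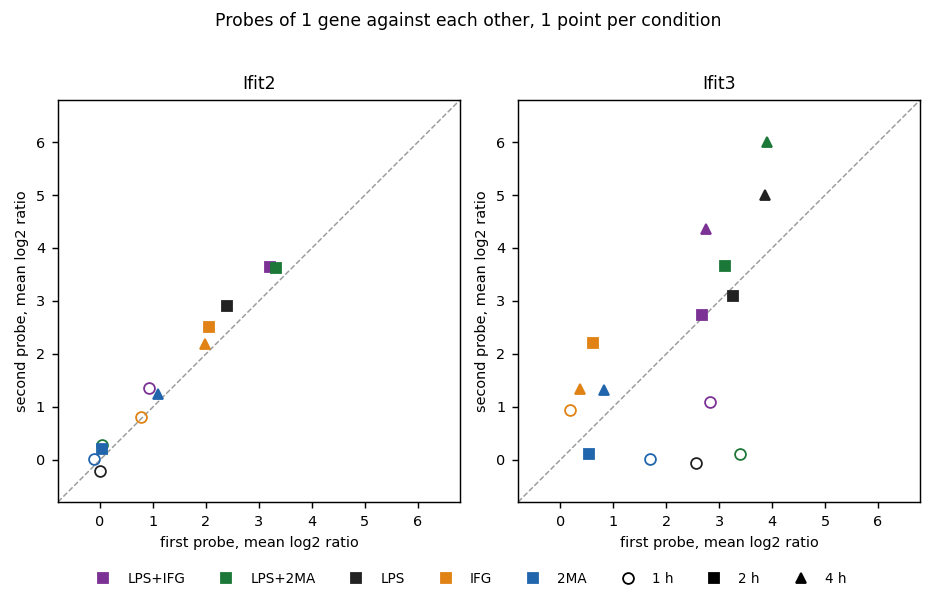
Mean log2 ratio of the second probe (y axis) against the first probe (x axis) for Ifit2 (left) and Ifit3 (right); each point is a condition, with colour for treatment and shape for time. The Ifit2 points lie near one line (r = 0.994), and the Ifit3 points scatter (r = 0.570), with several 1 h conditions high on the first probe alone.

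For 3 of the member probes missing values were most common at 4 h wherever LPS was given. Cmpk2 and the first Ifit2 probe had their highest means there. The second Ifit2 probe had no ratio on 18 of 18 arrays of the LPS-containing 4 h conditions and on 0 of 72 others, and the Rsad2 probe on 17 of 18 and 3 of 72. The second Ifit3 probe lacked 7 of 18 and 0 of 72, with 3 in LPS, 4 in LPS+2MA and 0 in LPS+IFG at 4 h. The other way round, the second Ifit1 probe lacked 4 of 18 and 54 of 72, and the first Ifit3 probe 0 of 18 and 4 of 72. Cmpk2, the first Ifit1 probe and the first Ifit2 probe had a ratio on every array. The Rsad2 probe therefore has no 4 h mean for these conditions, and its 1 array with a value, in LPS+IFG, gave 5.16. Across the array, missing values at 4 h of LPS were most common among probes highest at 2 h of LPS, without a steady rise. Of 47 probes with a mean over 3 at 2 h of LPS, 8.87% of values were missing at 4 h of LPS and 3.19% at 4 h of IFG or 2MA. Among 14636 probes under 1 the shares were 2.44% and 2.36%. For means of 1 to 2 they were 4.55% and 1.56%, and for 2 to 3 they were 3.14% and 1.96%. These probes include the members. The Rsad2 probe and the second Ifit3 probe, among the 47, lacked 6 and 3 of 6 arrays at 4 h of LPS. The second Ifit2 probe, in the group of 2 to 3, lacked 6. Why values are missing was not tested.

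**Figure D4:**
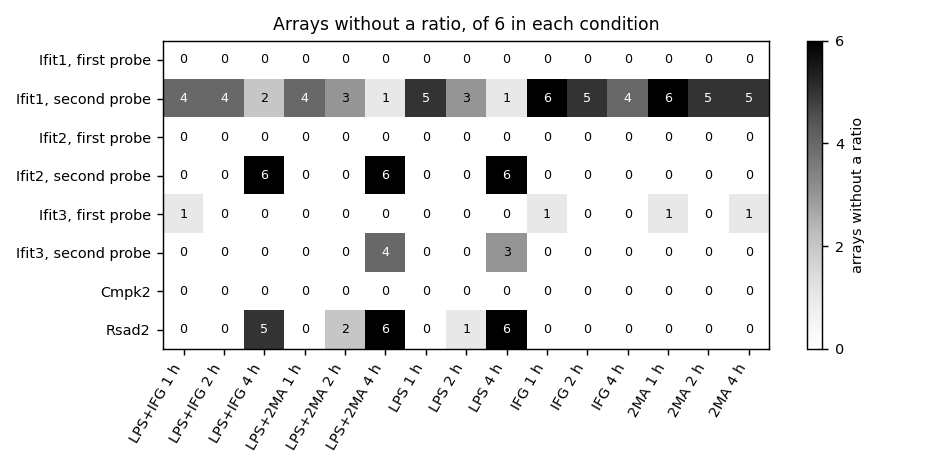
Number of arrays with no ratio, out of 6 a condition, for the 8 member probes (rows) in the 15 conditions (columns); darker cells are more missing arrays. The second Ifit2 probe and the Rsad2 probe are empty at 4 h wherever LPS was given, apart from 1 Rsad2 array of LPS+IFG, and the second Ifit1 probe is mostly empty except at 4 h wherever LPS was given.

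With IFG alone the called ratios ran from 2.06-fold for Ifit1 at 1 h to 5.67-fold for the second Ifit2 probe at 2 h. After 1 h of IFG, Ifit1 was called at 0.78, 1.32 and 1.03 (2.06-fold, adjusted p = 0.000135), 1 of 4 members against 0.353% of features (0.460% of single probes), and lost its call without IFG 1 h set 2 (0.90). After 2 h, 3 of 4 were called, against 1.06% of features (1.18% of single probes). Ifit2 stood at 1.88, 2.42 and 1.88 (4.17-fold, 4.59e-05), Ifit1 at 1.59, 1.99 and 1.67 (3.36-fold, 1.18e-09) and Cmpk2 at 1.66, 1.58 and 1.72 (3.15-fold, 3.04e-06). After 4 h, 2 of 4 were called, against 1.69% of features (1.89% of single probes). Cmpk2 was then at 1.79, 1.46 and 2.35, Ifit2 at 1.61, 2.16 and 2.15, and Ifit1 at 0.62, 0.89 and 1.48, a 1.99-fold mean that missed the 2-fold threshold and passed it without set 1 (1.18) or set 2 (1.05). Rsad2 was at 0.98 after 1 h, which missed 2-fold, and was called at 1.76 after 2 h and 1.98 after 4 h. The second Ifit2 probe was called at 2 h and 4 h, at 2.50 and 2.19. The second Ifit3 probe was called at 4 h too, at 0.59, 1.32 and 2.12, a call lost without set 3 (0.95). Neither step in time under IFG was called for any of the 4 members in limma, against 0.181% and 0.319% of features, with 3 unadjusted p-values under 0.05 for 2 h less 1 h and 1 for 4 h less 2 h. A fit of the compared conditions alone called Ifit2 (1.29, adjusted p = 0.0134) and Cmpk2 (1.03, 0.00699) for 2 h less 1 h. The second Ifit2 probe rose by 1.69 from 1 h to 2 h (adjusted p = 0.0301, against 0.249% of single probes), a call lost without any of 5 of the 6 sets.

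LPS against IFG differed by gene and time. At 1 h, 1 of 4 members was higher with LPS, against 0.922% of features, and it was Ifit3 on its first probe, by 2.38 ± 0.45 (SE). The second Ifit3 probe went the other way by -0.99, with an interval of -1.77 to -0.22 and an adjusted p of 0.306. At 2 h, 3 of 4 were higher with LPS, against 1.44% of features (1.58% of single probes). Ifit3 differed by 2.65 (adjusted p = 1.83e-05), Ifit1 by 1.88 (5.66e-07) and Cmpk2 by 1.40 (0.00452), and Rsad2 differed by 2.35 (1.57e-05). The Cmpk2 call was lost without LPS 2 h set 1 (0.97, adjusted p = 0.0977) and with arrays scaled to equal spread (1.12, 0.16). For Ifit2 the difference was 0.35, with a 95% interval of -0.63 to 1.32. It was 1.41 and called without LPS 2 h set 3 (0.0136), and the second Ifit3 probe, at 0.89, was likewise called without it (1.60).

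2MA alone gave little before 4 h. Ifit3 was called after 1 h on its first probe, at 2.28 and 1.10 in the 2 sets with a value (3.23-fold, adjusted p = 0.00762), 1 of 4 members against 0.259% of features (0.327% of single probes). That call was lost without set 1 (1.10, adjusted p = 1) and in the Cy5-treated arrays by themselves (1.09, adjusted p = 0.0597), and the second Ifit3 probe stood at 0.02. After 2 h limma called 0 of 4, against 0.319% of features (0.431% of single probes), with 0 unadjusted p-values under 0.05. In Cy3-treated arrays by themselves it called Ifit3 at 2 h (1.06, adjusted p = 0.00431). After 4 h limma called 0 of 4, against 0.112% of features (0.227% of single probes), with 4 unadjusted p-values under 0.05, 2 of which passed after adjustment and missed 2-fold. With Cy3-treated arrays by themselves all 4 were called (Ifit3 at 1.58, Ifit2 at 1.44, Ifit1 at 1.10 and Cmpk2 at 1.04), and Ifit2 was also called with zeros kept or with no filter (1.16). Ifit1 was called with arrays scaled to equal spread (1.08, adjusted p = 0.0251), and Ifit3 with no filter (1.06, 0.0121), which averages both Ifit3 probes. Ifit2, Ifit1, Cmpk2 and Ifit3 nonetheless ranked 15, 19, 33 and 45 of 11600 by mean ratio. Ifit1 stood at 1.60, 0.88 and 0.45, Cmpk2 at 1.32, 0.94 and 0.46, and Ifit2 at 1.81, 1.16 and 0.30. Set 1 was highest and set 3 lowest for each of them. In the single-probe fit Rsad2 was called at 1.79, 1.13 and 0.73 (2.32-fold, adjusted p = 0.0015), the second Ifit3 probe at 1.96, 1.23 and 0.76 (0.00447) and the second Ifit2 probe at 2.10, 1.23 and 0.38 (0.00833). Each of these 3 calls was lost without set 1, and the second Ifit2 probe's also without set 2 (adjusted p = 0.0509). Without set 3 Ifit1 passed at 1.24 and Cmpk2 at 1.13, and without set 2 Ifit1 passed at 1.03. The effector median was 0.63, 0.55 and 0.20 in the same sets. In limma no step in time under 2MA was called for the 4 members, against 0.00862% and 0% of features, with 1 and 3 unadjusted p-values under 0.05.

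With LPS+IFG, 3 of 4 members were called after 1 h, against 1.69% of features (1.98% of single probes). Cmpk2 stood at 1.77, 1.57 and 2.18 (3.58-fold, adjusted p = 2.01e-07) and Ifit1 at 1.94, 2.14 and 2.29 (4.35-fold, 5e-12). Rsad2 was the highest of the probes, at 3.46, 3.15 and 4.42 (12.8-fold, 9.56e-14). The second Ifit2 probe was called at 0.97, 1.42 and 1.67, and the second Ifit3 probe at 0.82, 1.24 and 1.19, a call lost without set 2 (1.00) or set 3 (1.03). All 4 members were called after 2 h, against 3% of features (3.3% of single probes), with Cmpk2 at 4.45, 3.68 and 4.04, Ifit1 at 3.66, 3.12 and 3.37 and Ifit2 at 3.72, 3.46 and 2.46. All 4 were called after 4 h too, against 4.58% (4.84% of single probes). At 4 h Ifit2 stood at 5.06, 4.97 and 4.98 (32-fold, 6.01e-15), Cmpk2 at 5.25, 4.48 and 5.18 (31.4-fold, 2.01e-19) and Ifit1 at 3.80, 3.38 and 4.12 (13.6-fold, 9.83e-20). The first Ifit3 probe averaged 2.83, 2.67 and 2.76 at 1, 2 and 4 h and the second 1.08, 2.73 and 4.36, so only the second probe's means climbed with time. Cmpk2 rose by 2.21 from 1 h to 2 h (3.02e-05), Ifit2 by 2.29 (0.002) and Ifit1 by 1.26 (0.000921), 3 of 4 against 0.957% of features (1.06% of single probes). From 2 h to 4 h Ifit2 alone among the 4 rose, by 1.79 (0.015), 1 of 4 against 0.974% (1.07% of single probes). It lost that call without LPS+IFG 2 h set 3 (1.41) or 4 h set 1 (1.76), and the second Ifit3 probe rose by 1.63 (0.00576). With arrays scaled to equal spread neither of these rises was called (1.09 and 1.00). Scaling also ended the 1 h to 2 h calls of Cmpk2 (1.66) and Ifit1 (0.80).

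Set against LPS alone at 1 h, LPS+IFG was higher for 2 of 4 members, against 0.629% of features (0.728% of single probes). The labels list the lipid binding protein for LPS alone only, so its absence and the presence of IFG cannot be told apart here. Cmpk2 averaged 1.84 ± 0.31 with LPS+IFG and 0.06 ± 0.35 with LPS (SD, n = 3 each), a difference of 1.78 ± 0.33 (SE, adjusted p = 0.000938). Ifit1 averaged 2.12 ± 0.18 with LPS+IFG and 0.84 ± 0.22 with LPS, a difference of 1.28 ± 0.25 (0.0013), and the sets did not overlap for either gene. With arrays scaled to equal spread neither passed (adjusted p = 0.0595 for Cmpk2 and 0.373 for Ifit1). Rsad2 differed by 1.69 ± 0.31 (0.0012) and the second Ifit2 probe by 1.56 (0.0289), a call that 4 of the 6 single sets decide (1.38 to 1.59 without them). Scaling to equal spread ended both of these calls too (1.23, adjusted p = 1, and 1.61, 0.0975). With set 1 left out of all groups, 0 of the 4 members passed, and with set 2 left out, 1. The first Ifit2 probe differed by 0.92 (interval -0.05 to 1.90) and the first Ifit3 probe by 0.27 (-0.66 to 1.19). At 2 h limma called 0 of 4, against 0.871% of features, with 1 unadjusted p under 0.05. The differences were then 1.00 for Cmpk2 (interval 0.32 to 1.67, called at 1.42 without LPS 2 h set 1), 0.81 for Ifit2 (-0.16 to 1.78), -0.24 for Ifit1 (-0.74 to 0.25) and 0.22 for Rsad2 (-0.49 to 0.93). At 4 h, not tested, they were -0.27 for Ifit2, -0.50 for Cmpk2, -0.68 for Ifit1 and -1.12 for Ifit3. The change of the difference from 1 h to 2 h was -1.53 for Ifit1 (adjusted p = 0.0717). Limma called 0 of 4 lower there, against 0.0603% of features, with 1 unadjusted p under 0.05.

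Set against IFG alone, which shares the LPS+IFG samples with the comparison above, LPS+IFG was higher for 3, 3 and 4 of 4 members at 1, 2 and 4 h. The shares of all features were 1.04%, 1.69% and 2.12% (1.24%, 1.93% and 2.31% of single probes). At 1 h Ifit3 differed by 2.64, Cmpk2 by 1.21 (adjusted p = 0.04) and Ifit1 by 1.08 (0.00682), and Rsad2 by 2.70 (5.29e-07). Several of these 1 h calls hung on single sets. Cmpk2's was lost without any 1 of the 6 sets (1.02 to 1.35), Ifit1's without IFG set 1 (0.95) or LPS+IFG set 3 (0.99), and Ifit3's without LPS+IFG set 3 (1.97), while the second Ifit3 probe differed by 0.15. At 2 h the first Ifit3 probe differed by 2.06 (0.000704) and the second by 0.52 (0.666). Cmpk2 differed by 2.40 (2.08e-06), Ifit1 by 1.63 (9.31e-06) and Rsad2 by 2.57 (6.42e-07). Ifit2 differed by 1.15 with an adjusted p of 0.176, which became 0.0291 with the set as a block. At 4 h Cmpk2 differed by 3.10, Ifit2 by 3.03, Ifit1 by 2.77 and Ifit3 by 2.37, and the second Ifit3 probe by 3.02.

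With LPS+2MA, 2 of 4 members were called after 1 h, against 1.15% of features (1.39% of single probes), namely Ifit1 at 1.24, 1.70 and 1.31 (2.67-fold, adjusted p = 1.24e-07) and the first Ifit3 probe at 3.35, 2.57 and 4.27. Rsad2 was called at 2.35, 2.38 and 2.72, while Cmpk2 stood at 0.39, 0.34 and 0.77 and Ifit2 at 0.24, 0.23 and -0.35. All 4 were called after 2 h, against 2.22% of features (2.48% of single probes), with Ifit1 at 4.04, 4.12 and 3.64, Cmpk2 at 4.13, 3.75 and 2.61 and Ifit2 at 3.23, 4.17 and 2.54. Set 3 was the lowest for Ifit1, Cmpk2 and Ifit2, and set 2 was for the first Ifit3 probe, at 2.73. All 4 were called after 4 h too, against 4.69% (4.94% of single probes). At 4 h Cmpk2 reached 5.70, 5.49 and 6.03 (53.5-fold, 7.39e-21), Ifit2 5.37, 5.81 and 5.48 (47-fold, 3.3e-16) and Ifit1 4.46, 4.41 and 4.90 (24.1-fold, 9.55e-22). These were the highest means of each of the 3 genes over the 15 conditions, though their set ranges overlapped those of LPS alone at 4 h. The first Ifit3 probe averaged 3.39, 3.12 and 3.90 at 1, 2 and 4 h, and the second 0.11 and 3.66 at 1 and 2 h, with a 4 h value from set 3 alone, whose arrays read 5.36 and the limit of 6.64. From 1 h to 2 h, 3 of 4 rose, against 0.733% of features (0.855% of single probes), Ifit2 by 3.27, Cmpk2 by 3.00 and Ifit1 by 2.52. From 2 h to 4 h, 2 of 4 rose, against 1.97% (2.01% of single probes), Cmpk2 by 2.24 (6.41e-06) and Ifit2 by 2.24 (0.00133). Both of these calls were lost with arrays scaled to equal spread (1.47, adjusted p = 0.067, for Cmpk2 and 1.47, 0.103, for Ifit2).

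Set against LPS alone, LPS+2MA was higher for 0 of 4 members at 1 h in limma, against 0.069% of features, with 2 unadjusted p-values under 0.05, and for 0 of 4 at 2 h, against 0.0259%, with 0. At 1 h the differences were 0.83 for the first Ifit3 probe (95% interval 0.0020 to 1.65), 0.57 for Ifit1 (0.08 to 1.07), 0.44 for Cmpk2 (-0.24 to 1.11), 0.50 for Rsad2 (-0.14 to 1.13) and 0.04 for Ifit2 (-0.93 to 1.01). At 2 h they were 0.31 for Ifit1 (-0.19 to 0.80), 0.44 for Cmpk2 (-0.24 to 1.11), 0.35 for Rsad2 (-0.43 to 1.12), 0.91 for Ifit2 (-0.06 to 1.88) and -0.15 for the first Ifit3 probe (-0.97 to 0.68). At 4 h, not tested, they were 0.28 for Ifit2, 0.27 for Cmpk2, 0.15 for Ifit1 and 0.03 for the first Ifit3 probe. By the labels these comparisons also differ in the lipid binding protein, which cannot be told apart from 2MA.

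Set against 2MA alone, LPS+2MA was higher for 1, 4 and 4 of 4 members at 1, 2 and 4 h, against 0.802%, 1.52% and 3.84% of features (0.941%, 1.76% and 4.09% of single probes). At 1 h Ifit1 differed by 1.07 (adjusted p = 0.0112), a call lost without 2MA set 2 (0.97) or LPS+2MA set 2 (0.93), and Rsad2 by 2.15 (3.67e-05). Ifit3, on its first probe, differed by 1.70 with an adjusted p of 0.0509 and was called without 2MA set 1 (2.29) or LPS+2MA set 2 (2.12). It was also called with the set as a block (2.01, adjusted p = 0.00287) and with each probe on its own (1.70, adjusted p = 0.0472). The second Ifit3 probe did not show it, at 0.11 with LPS+2MA and 0.02 with 2MA. At 2 h the differences ran from 2.57 for Ifit3 to 3.74 for Ifit1, with Rsad2 at 3.90. At 4 h Cmpk2 differed by 4.83 (9.85e-14), Ifit2 by 4.46 (3.48e-09), Ifit1 by 3.61 (7.37e-14) and Ifit3 by 3.07 (3.73e-06).

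**Figure D5:**
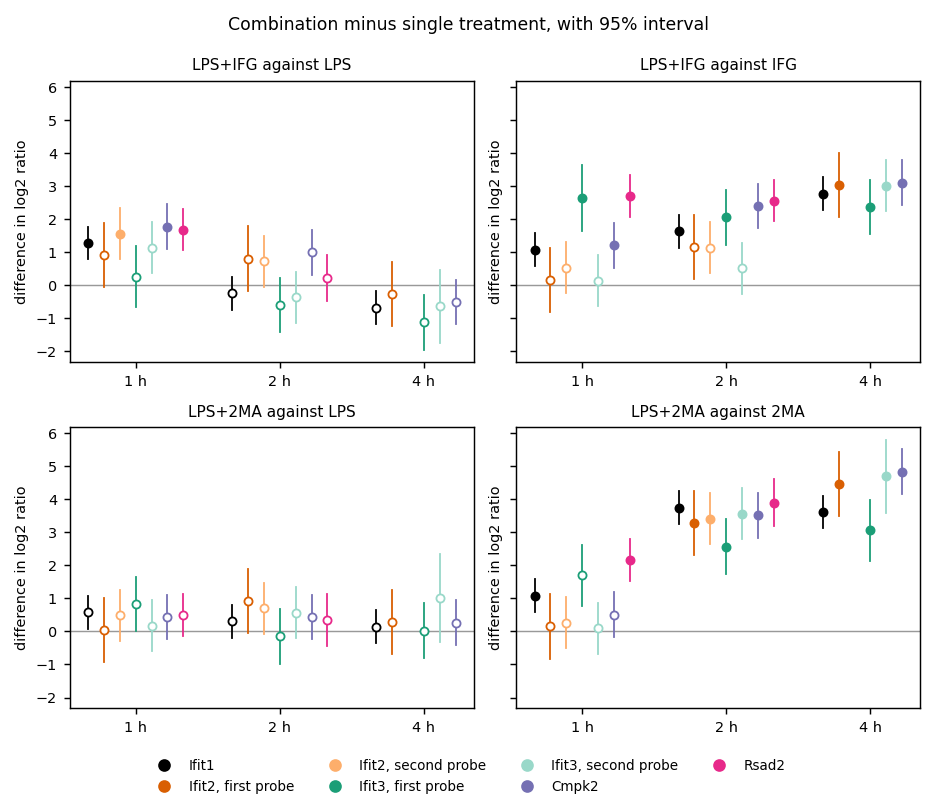
Difference in log2 ratio with its 95% interval at 1, 2 and 4 h for LPS+IFG against LPS and against IFG and for LPS+2MA against LPS and against 2MA (4 panels), by gene; filled points passed an adjusted p of 0.05 and 2-fold, open points did not or, against LPS at 4 h, were not tested. Against LPS, LPS+IFG is above 0 at 1 h for Cmpk2 (1.78) and Ifit1 (1.28), and every LPS+2MA point is open.

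Between the combinations, LPS+IFG was higher than LPS+2MA at 1 h for 1 of 4 members, against 0.578% of features (0.648% of single probes). Cmpk2 stood at 1.84 ± 0.31 with LPS+IFG and 0.50 ± 0.24 with LPS+2MA (SD, n = 3 each), a difference of 1.34 (adjusted p = 0.0263), and its sets did not overlap. The call was lost without any of 4 of the 6 sets, LPS+IFG set 1 or 3 or LPS+2MA set 1 or 2 (1.17 to 1.38). Rsad2 differed by 1.19 (0.0487) and lost that call without any of 5 of the 6 (0.82 to 1.31). At 2 h and 4 h limma called 0 of 4 higher, against 0.819% and 0.647% of features, and 0 lower at 4 h, against 0.629%, with 1 and 3 unadjusted p-values under 0.05. At 4 h the 4 differences were all below 0, at -0.82 for Ifit1 (0.0444, short of 2-fold, and called lower without LPS+IFG set 3, adjusted p = 0.0239, or with zeros kept, at -1.21), -1.14 for Ifit3 (0.129, and 0.0372 with the set as a block), -0.77 for Cmpk2 and -0.55 for Ifit2. The Ifit1 value with zeros kept averages both Ifit1 probes, whereas -0.82 is from the first probe alone.

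A combination was also set against the sum of its single log2 ratios, which is the product of their folds. The sum holds LPS alone, for which the labels list the lipid binding protein, so its part cannot be told apart. At 2 h LPS+IFG fell short of the sum for 1 of 4 members, against 0.172% of features (0.168% of single probes). Ifit1 stood at 3.38 with LPS+IFG, and its LPS and IFG ratios summed to 5.37, a difference of -1.99 ± 0.30 (SE, adjusted p = 0.000166). The second Ifit3 probe differed by -2.58 (0.00279) and Rsad2 by -1.54 (0.154). Ifit2 differed by -1.25, which was -2.31 and called without LPS 2 h set 3 (0.00288), and its second probe by -1.77, called at -2.43 without that set. With set 2 left out of all groups the Ifit1 call was lost, and with set 3 left out 2 of 4 were called. At 1 h none of the 4 fell short in limma, against 0% of features for either combination, with 1 unadjusted p under 0.05 for LPS+IFG and 0 for LPS+2MA. Cmpk2 lay 1.15 above the LPS+IFG sum, with an adjusted p of 1. LPS+2MA at 2 h gave 0 of 4, against 0.00862%, and 0 unadjusted p-values under 0.05. At 4 h, not tested, LPS+IFG lay below the sum by -2.37 for Cmpk2, -2.25 for Ifit2 and -1.67 for Ifit1. For Cmpk2 and Ifit2 the sum exceeds 6.64, the limit of the deposited ratios. LPS+IFG could not have reached it, so nothing is read from these shortfalls.

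Ordered by mean ratio, Cmpk2 was highest at 4 h of LPS+2MA, then LPS, then LPS+IFG, and lowest at 2 h of 2MA. Of the 14 pairs of neighbours in that order, 12 had overlapping set ranges. The breaks lay between LPS+IFG at 4 h and LPS+IFG at 2 h, and between IFG at 2 h and 2MA at 4 h. The first Ifit2 probe also had 12 of 14 overlapping, Ifit1 11 of 14, the first Ifit3 probe 13 of 14 and the second 9 of 14. Rsad2 had 10 of 11, with its break between LPS+IFG and LPS+2MA at 1 h. Cmpk2 correlated over the 15 condition means at 0.982 with Ifit2, 0.954 with Ifit1 and, over 12 conditions, 0.876 with Rsad2. The 8 other genes whose 15 means were most like the mean profile of the 4 members were Hdc (r = 0.981), Edn1 (0.977), Gm9706 (0.972), Mx1 (0.971), Slc11a2 (0.968), Slc15a3 (0.966), Marcks (0.965) and Isg15 (0.964). The member profile includes 4 h of LPS, on which the members were chosen, and takes Ifit3 from its first probe. Hdc makes histamine, Edn1 is a vasoconstrictor peptide, and Mx1 and Isg15 are antiviral effectors. Edn1 and Slc11a2 were smaller in size, with highest means of 1.78 and 2.03, against 4.12 for Mx1 and 4.27 for Isg15.

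Among the ligands, 11 of 16 listed genes were measured, and Ifnb1, which encodes interferon beta, was the only one called, in all 9 LPS-containing conditions. It stood at 2.09 ± 0.11, 3.42 ± 0.20 and 3.20 ± 0.94 at 1, 2 and 4 h of LPS (SD, n = 3), and at 0.54 ± 0.13 or below in every IFG and 2MA condition. With LPS+IFG it stood at 1.48 ± 0.26, 2.90 ± 0.73 and 3.72 ± 1.12, and with LPS+2MA at 3.31 ± 0.82, 4.86 ± 0.40 and 4.67 ± 0.61. At 1 h of LPS, then, Ifnb1 was called at a time when Cmpk2 and Ifit2 were not. Rsad2, at 1.99, and the first Ifit3 probe, at 2.57, were called at that time too. Of 7 interferon receptors and kinases, limma called 0, 1 and 2 higher at 1, 2 and 4 h of LPS, with 3 unadjusted p-values under 0.05 at 1 h, and Jak2, a kinase of the interferon gamma receptor and the highest over all conditions, stood at 2.10 ± 0.51 after 2 h of LPS. Of 8 measured LPS receptor and adaptor genes it called 0, 1 and 3 higher at those times, with 2 unadjusted p-values under 0.05 at 1 h.

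Of 8 measured interferon-regulated transcription factors, LPS+IFG gave 2, 3 and 4 called higher at 1, 2 and 4 h, LPS+2MA 0, 1 and 6, LPS 0, 1 and 5, IFG 2, 3 and 3, and 2MA 0 at each time. In limma the 0 at 1 h had 3 unadjusted p-values under 0.05 for LPS+2MA and 3 for LPS, and those of 2MA had 2, 0 and 3. Irf1 stood at 0.60, 2.29 and 2.71 with LPS against 3.45, 3.67 and 3.86 with IFG, the opposite order to Ifit1 at 2 h and 4 h. Irf8, another factor known to respond to interferon gamma, stood at -0.24, 0.27 and 1.01 with LPS against 2.04, 2.69 and 2.52 with IFG. Stat2, a part of the ISRE-binding complex, stood at -0.58, 0.83 and 2.66 with LPS. Of 4 measured feedback inhibitors, 1 was called at 4 h of LPS and 1 at each time of IFG, where Socs1, which blocks Janus kinases, stood at 2.96, 3.00 and 2.69.

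The wider list of type I interferon effectors had 23 of 38 genes measured. Ifih1, Cxcl10, Adar, Ifitm3 and Ifi47 have a named probe but had too many missing values for the fit across all features. The same held for Usp18 and Ptpn6 among the feedback inhibitors, and for Gbp2 and Irgm1 among the interferon gamma response genes. The counts and medians leave these genes out, and what they would add was not tested. In LPS, limma called 0 of them higher at 1 h, with 2 unadjusted p-values under 0.05, then 10 at 2 h and 21 at 4 h. Their medians were 0.04, 0.90 and 2.37, beside member medians of 0.45, 3.16 and 4.86. The member median at 4 h follows from how the members were chosen, and nothing is read from it. That at 1 h includes the first Ifit3 probe, at 2.57, where the second stood at -0.05. With IFG 5, 14 and 14 were called, with medians of 0.61, 1.22 and 1.30, beside 0.70, 1.70 and 1.43 for the members. LPS+IFG gave 11, 18 and 20 (medians 0.80, 1.68 and 2.33), LPS+2MA 1, 11 and 21 (0.07, 0.98 and 2.59) and 2MA 0 at each time, with 3, 0 and 16 unadjusted p-values under 0.05. Medians over all features lay between -0.0141 and 0.00804. The highest of the list over all conditions were Isg15, a ubiquitin-like modifier, Ifi204 and Zbp1, and the lowest were Tnfsf10, Isg20 and Oas1g. Isg15 stood at 0.94, 2.80 and 4.02 with LPS, and Ifi204 at 0.42, 1.59 and 4.27. Of 11 measured interferon gamma response genes, limma called 0, 4 and 7 at 1, 2 and 4 h of LPS, with 0 unadjusted p-values under 0.05 at 1 h, and 7, 8 and 8 at those of IFG. Of 6 measured nucleotide kinases and related enzymes listed beside Cmpk2, none was called at 1 h or 2 h of LPS, with 2 unadjusted p-values under 0.05 at each, and 2 were called higher and 1 lower at 4 h. The highest over all conditions was Samhd1, a dNTP hydrolase, which was called at 2 h and 4 h of IFG (1.32 and 2.01) and at 4 h of LPS (1.62). The 3 other Ifit family members listed have no probe named here.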

How the data were processed

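RNA of treated and untreated RAW 264.7 cells was hybridised in pairs to custom Agilent oligonucleotide arrays. The authors deposited log2 ratios per probe; the background correction and normalisation behind them are not given in the sources used here. Array medians were 0. Exact zeros were taken as missing, signs were turned on arrays with treated RNA in Cy3, and a set's 2 arrays were averaged where both had a value. Probes with at least 2 of 3 sets in every condition (13711) were averaged per gene into 11600 features, 9760 named genes and 1840 unnamed probes. Of 13790 annotated probes, 13738 named 1 gene, and 13694 of these were updated through the gene ID. One limma 3.58.1 fit (R 4.3.3) held all 15 conditions, with Benjamini-Hochberg adjustment per comparison. A call needs an adjusted p under 0.05 and 2-fold. The script was tested on simulated data. Sets with the same number deviated together in 26 of 30 pairs of conditions (median r = 0.433, lowest -0.119), not for 2MA with either combination at 1 h, 2MA with LPS+IFG at 4 h or LPS with IFG at 2 h; the fit has no block. Alternatives were zeros kept, arrays scaled, each dye alone, no filter, each probe on its own, only the compared conditions fitted, a set block, and sets left out. The members and lists were chosen with earlier results of these data known. Named were the 5 members, at most 3 genes of each list by highest and lowest mean over 15 conditions, and the 8 genes most like the members. The number of arrays limits precision, and depth has no meaning here.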

Additional observations from a re-analysis of the deposited data

Results flagged for a closer look

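The member ratios differed between times within a treatment, by limma's test of the difference (adjusted p-values from 1.16e-09 to 0.015). In LPS, the value at 2 h less that at 1 h was 2.78 for Ifit1, 2.41 for Ifit2 and 3.00 for Cmpk2. In LPS+IFG it was 1.26 for Ifit1, 2.29 for Ifit2 and 2.21 for Cmpk2, and the value at 4 h less that at 2 h was 1.79 for Ifit2. In LPS+2MA the value at 2 h less that at 1 h was 2.52 for Ifit1, 3.27 for Ifit2 and 3.00 for Cmpk2, and the value at 4 h less that at 2 h was 2.24 for Ifit2 and 2.24 for Cmpk2. The step of Ifit2 in LPS lost its call with only the compared conditions fitted (adjusted p = 0.133). With arrays scaled to equal spread, the steps from 2 h to 4 h named here lost their calls. So did the LPS+IFG steps of Ifit1 and Cmpk2 from 1 h to 2 h.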

How the results depend on the processing

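Against untreated cells, 33 of 56 member results were called higher, and 30 to 42 under the alternatives. Against LPS, 2 were called, but 1 with exact zeros kept as a ratio of 1, 0 with the spread of arrays scaled to be equal, 1 with no filter on missing values, and 0 to 2 leaving out a set. Against IFG or 2MA, 19 were called, 12 with scaled arrays, and 15 to 19 leaving out a set. Between the combinations, 1 was called higher, but 0 with zeros kept, with scaled arrays and with treated RNA in Cy5 alone, and 0 to 1 leaving out a set. For LPS against IFG, 4 were called, 2 with zeros kept, and 3 to 5 leaving out a set. For steps in time, 12 were called, 7 with scaled arrays, and 7 to 12 leaving out a set (7 without set 1). Short of the sum, 1 was called, 0 with zeros kept, and 0 to 2 leaving out a set. The set as a replicate block gave 2, 21, 1, 4 and 1 calls in the 5 families it could be fitted to, and the calls it added are beside their results. The 4 h less 2 h value of Ifit2 reversed with zeros kept, to -0.93 in LPS+IFG and -0.69 in LPS+2MA, where the second Ifit2 probe's missing values at 4 h count as 0. The 2 h less 1 h value of Ifit3 in LPS+2MA, not called at -0.28, was 1.63 with no filter, which averages both Ifit3 probes. Of the single member results, 17 lost and 2 gained a call with scaled arrays, 17 and 4 with zeros kept, and 21 and 11 over all omissions of 1 set. Scaling moved the count of features called higher by over 1.5 times in 13 of 42 comparisons, leaving out set 1 in 14, and Cy3 alone in 10. With zeros kept and with no filter, Ifit1 also averages both its probes. The second lacks a ratio on 54 of the 72 arrays outside the LPS-containing 4 h conditions, and these count as 0 where zeros are kept. Ifit1 after 1 h of IFG was then 0.52, against 1.04 in the main fit. The cause of the other changes was not tested.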

Other observations

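The second Ifit1 probe entered Ifit1 only in the alternatives with zeros kept or with no filter, which average all probes of a gene. It had no ratio on 54 of the 72 arrays outside the LPS-containing 4 h conditions and on 4 of the 18 within them. It stood at 2.27 and 2.35 in the 2 sets with a pair after 4 h of LPS+2MA, at 0.64 in 1 set after 4 h of LPS+IFG, and at 1.78 and 1.76 in 2 sets after 4 h of LPS. Its ratios were higher with treated RNA in Cy3 by 1.73 on average over 7 conditions with both dyes, against 0.18 for the first Ifit1 probe.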
